A study of Rattus norvegicus with 16 samples.

Results

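The small leucine-rich matrix proteoglycans lumican (Lum), osteomodulin (Omd), fibromodulin (Fmod), decorin (Dcn) and biglycan (Bgn) were read in rat skeletal muscle by every probe set annotated to 1 of these symbols alone, which gave 10 of the 8799 probe sets on the array and 5 of its 4737 singly named genes. Lum and Omd had 1 probe set each, Fmod and Bgn 2 each and Dcn 4. A probe set is a group of short oligonucleotides read together. The 4 member probe sets with the suffix _s_at, 1 each of Fmod and Bgn and 2 of Dcn, may hold probes shared by several transcripts. The 3 groups were EOM (extraocular muscle, 4 arrays with no collection time in the labels), TA_6h (muscle labelled TA, collected at 6 hours, 8 arrays) and TA_1h (the same muscle collected at 1 hour, 4 arrays). Strain, sex, age and the event from which the hours count are not given in the sources used here. Arrays of 1 group and number were averaged and counted as 1 sample, which gave 4 EOM, 4 TA_6h and 2 TA_1h samples. The labels do not tie a number to an animal or a culture, and a p-value here covers the variation among numbered samples alone, some of which may be technical. Whether 2 unlettered TA_6h arrays pair with the lettered arrays of their number is an inference.

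These proteins carry a core of leucine-rich repeats that binds collagen fibrils, with side chains of chondroitin or dermatan sulfate on decorin and biglycan and of keratan sulfate on lumican, fibromodulin and osteomodulin. They set the diameter and spacing of collagen fibrils, and decorin, biglycan and fibromodulin also bind growth factors of the TGF-beta family. In skeletal muscle they lie mainly in the connective tissue around fibres and in tendon, where fibroblast-like cells make them. Biglycan also binds proteins of the muscle fibre membrane, and osteomodulin is best known from bone and dentin.

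RefSeq promoter windows (build GRCr8, 250 bases before to 50 after the start) were held for Lum, Omd and Fmod, 3 of the 5 genes. They are shown because Lum and Omd were called higher in EOM while Fmod was not called. Capitals mark matches to any of 4 motifs searched on both strands: TATAAA, the GC box GGGCGG, the E-box CANNTG and the AP-1 motif TGANTCA. The windows lie at chr7:34245456-34245755 (plus strand), chr17:15274821-15275120 (minus strand) and chr13:48045317-48045616 (plus strand), and each is printed 5′ to 3′.
Lum: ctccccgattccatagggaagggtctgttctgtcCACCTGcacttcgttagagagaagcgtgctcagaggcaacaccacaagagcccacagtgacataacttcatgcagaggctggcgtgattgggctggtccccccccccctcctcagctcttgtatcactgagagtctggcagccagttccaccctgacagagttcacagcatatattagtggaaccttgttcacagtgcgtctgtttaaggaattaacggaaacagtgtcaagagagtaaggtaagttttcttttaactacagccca
Omd: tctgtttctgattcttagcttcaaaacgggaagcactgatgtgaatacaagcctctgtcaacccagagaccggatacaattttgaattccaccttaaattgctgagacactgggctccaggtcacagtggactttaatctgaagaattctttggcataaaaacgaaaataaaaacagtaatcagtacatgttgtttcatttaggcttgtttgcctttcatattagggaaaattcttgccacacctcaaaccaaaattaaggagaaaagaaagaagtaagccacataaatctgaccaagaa
Fmod: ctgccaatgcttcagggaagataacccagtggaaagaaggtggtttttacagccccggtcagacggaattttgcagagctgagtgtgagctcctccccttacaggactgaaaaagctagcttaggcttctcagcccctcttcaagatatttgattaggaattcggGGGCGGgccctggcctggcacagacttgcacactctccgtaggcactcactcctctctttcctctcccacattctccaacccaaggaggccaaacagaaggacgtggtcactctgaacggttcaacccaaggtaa

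The Lum window held 1 E-box, the Fmod window 1 GC box and the Omd window none of the 4 motifs. Of 33469 rat promoter windows of the same length, 72.1% held an E-box, 33.1% a GC box, 14.2% TATAAA and 7.33% the AP-1 motif. Guanine and cytosine made up 50.7% of the Lum window, 37.7% of the Omd window and 52.7% of the Fmod window, against a median of 51.7% over all windows. By gene order in the same RefSeq release Dcn and Lum are direct neighbours on chromosome 7, and Omd lies beside the related genes Ogn and Aspn on chromosome 17.

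The deposited values were intensities on a linear scale. All arrays had been scaled alike, with a mean of 800.0 after the highest and lowest 2% of values were left out. In EOM 24.3% of all intensities were at or below 0, and in TA none was, down to a lowest value of 0.0219. The EOM and TA columns therefore differ in how they were made, and a difference of muscle and a difference of summary method cannot be told apart when EOM is set against TA. None of the EOM intensities of the 10 probe sets lay at or below the floor of 56.5, the 25th percentile of all intensities, to which lower values were raised before log2 was taken. In TA 2 did, both of 1 Fmod probe set in TA_1h. All 10 probe sets passed the filter of 4 arrays above the floor. On 5 TA arrays (TA_6h 3a, 3b, 4a and 4b and TA_1h 2b) the beta-actin control gave middle to 3′ signal ratios between 0.146 and 0.390, where the remaining 7 TA arrays had 0.815 to 1.28 and the EOM arrays 0.891 to 0.978. This ratio, a measure of RNA quality, is given beside the results it moves with. Within TA_6h the low-ratio arrays are all those of samples 3 and 4, so the ratio cannot be told apart from the sample. Values over all low-ratio TA arrays also pool both hours. The middle signal of the GAPDH control ran from 10659 to 14811 in EOM and from 856.1 to 51038 in TA. On TA_1h arrays 1a and 1b, neither of low ratio, it was 1299 and 19479.

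The comparison of extraocular muscle with TA muscle at 6 hours found 8 of the 10 proteoglycan probe sets called, 7 higher and 1 lower in EOM (limma with Benjamini-Hochberg adjustment over 7640 probe sets, called at an adjusted p under 0.05). Over all probe sets tested 47.2% were called, 21.9% higher and 25.3% lower in EOM. Against TA_1h 7 of the 10 were called, all 7 higher, beside 37.2% of all probe sets called, 17.7% higher and 19.5% lower. These comparisons share the EOM samples. Lum, Omd and all 4 probe sets of Dcn were higher in EOM in both. The probe sets of Bgn disagreed, and neither of Fmod was called in either. Between TA_6h and TA_1h 0 of the 10 were called, and 0% of all probe sets, while 424 of 7640 had an unadjusted limma p under 0.05. The muscle samples are bulk tissue, so more cells of a type and more RNA per cell cannot be told apart. The median difference over all probe sets was -0.11 against TA_6h and -0.09 against TA_1h and was not subtracted.

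**Figure D1:**
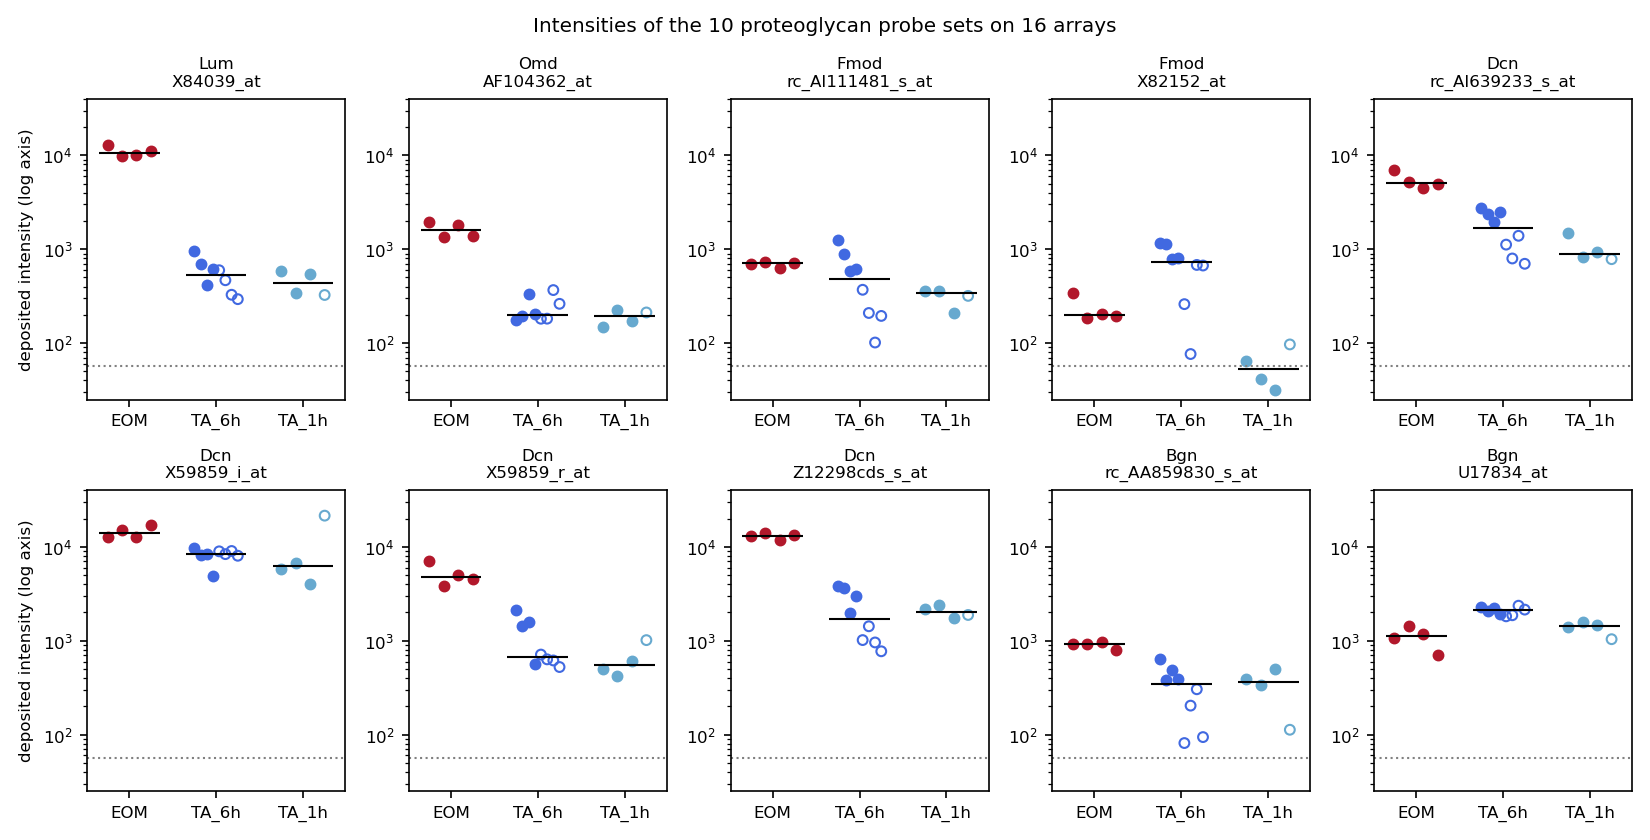
Deposited intensity (log axis) of each of the 10 proteoglycan probe sets on the 4 EOM, 8 TA_6h and 4 TA_1h arrays. Each point is an array, open circles are the 5 low-ratio TA arrays, bars are medians and the dotted line is the floor of 56.5. All EOM points of Lum, Omd and Bgn rc_AA859830_s_at lie above all TA points, and those of Bgn U17834_at lie below all TA_6h points.

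Lumican, a keratan sulfate proteoglycan that spaces collagen fibrils, differed most. Lum (X84039_at) had intensities of 12825, 9743, 10178 and 11152 on the 4 EOM arrays, against a lowest of 293.6, a median of 532.1 and a highest of 959.3 on the 8 TA_6h arrays and values of 591.5, 337.9, 542.2 and 325.4 on the TA_1h arrays. Every EOM array lay above every TA array. Lum was 21.4-fold higher in EOM than in TA_6h (log2 4.42 ± 0.26 SE, n = 4 and 4, limma adjusted p = 1.44e-06) and 25.2-fold higher than in TA_1h (log2 4.65 ± 0.32, n = 4 and 2, limma adjusted p = 6.68e-06). With each gene taken by its brightest probe set, it ranked 5 of 4317 genes from the highest in both comparisons. The call held in all 22 alternatives against TA_6h and all 22 against TA_1h, over which the log2 difference ran from 4.08 to 4.75 and from 4.47 to 5.07. Against TA_6h the ends of that range were the values without low-ratio arrays (4.08) and with those alone as TA (4.75), and Lum had a median of 327.2 on the 5 low-ratio TA arrays and 591.5 on the other 7. TA_6h and TA_1h overlapped (log2 0.24 ± 0.32, limma adjusted p = 1.0).

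Osteomodulin, a keratan sulfate proteoglycan of mineralized tissue, followed the same order. Omd (AF104362_at) had intensities of 1948, 1364, 1811 and 1398 in EOM, against a lowest of 174.3, a median of 199.2 and a highest of 367.1 in TA_6h and values of 148.5, 227.8, 173.6 and 211.9 in TA_1h. The lowest EOM array was above the highest TA array. The difference was 7.07-fold against TA_6h (log2 2.82 ± 0.22, limma adjusted p = 7.31e-06) and 8.57-fold against TA_1h (log2 3.10 ± 0.27, limma adjusted p = 2.49e-05), and it was called in all alternatives for both. Over all 4317 genes, each by its brightest probe set, 22.6% were called higher in EOM and 25.3% lower against TA_6h. Of 5 tested markers of bone and cartilage 2 were higher in EOM and 1 lower against TA_6h. The higher ones were Spp1 (osteopontin, log2 2.93) and Mgp (matrix Gla protein, log2 0.82). The lower was Bglap (osteocalcin, log2 -1.38), the bone-defining marker of this list, which was at the floor on all EOM arrays, as was Col2a1 on all TA_1h arrays. The summed level of the list ran from 15950 to 18205 in EOM, 7984 to 13589 in TA_6h and 6080 to 12166 in TA_1h. Most of it was Mgp, which averaged 11946 in EOM, 6982 in TA_6h and 4201 in TA_1h, and Alpl, with 4456, 3820 and 3886. Alpl was not called, and another of its probe sets was called lower against TA_6h. The part of this list in the Omd difference was not tested.

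Decorin, which binds collagen I and TGF-beta through a core with a single side chain, was higher in EOM in all 4 probe sets, by amounts that differed between them. The coding-sequence probe set Z12298cds_s_at had 13049, 14078, 11859 and 13382 in EOM, against a lowest of 771.6, a median of 1704 and a highest of 3862 in TA_6h and values of 1761 to 2409 in TA_1h. EOM lay above all TA arrays, with a 7.47-fold difference from TA_6h (log2 2.90 ± 0.40, limma adjusted p = 0.000274) and a 6.41-fold difference from TA_1h (log2 2.68 ± 0.49, limma adjusted p = 0.00206). X59859_r_at ran from 3841 to 6999 in EOM, 524.5 to 2108 in TA_6h and 422.0 to 1015 in TA_1h, and rc_AI639233_s_at from 4491 to 6955 in EOM, 699.6 to 2718 in TA_6h and 783.5 to 1506 in TA_1h. X59859_r_at differed by 5.59-fold from TA_6h (log2 2.48 ± 0.36) and 8.29-fold from TA_1h (log2 3.05 ± 0.44). For rc_AI639233_s_at the differences were 3.52-fold (log2 1.82 ± 0.34) and 5.45-fold (log2 2.45 ± 0.42). Limma adjusted p-values of these 2 probe sets ran from 0.000360 to 0.00176, and neither had EOM arrays that overlapped TA arrays.

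The remaining decorin probe set showed the smallest difference and rested on few arrays in TA_1h. X59859_i_at had 12795, 15164, 12799 and 17146 in EOM, against a lowest of 4849, a median of 8360 and a highest of 9831 in TA_6h and values of 5805, 6655, 4000 and 21524 in TA_1h. The value of 21524, on array 2b, exceeded every EOM array and was 5.38-fold that of array 2a of the same sample. The difference was 1.78-fold against TA_6h (log2 0.83 ± 0.20, limma adjusted p = 0.00640) and 1.89-fold against TA_1h (log2 0.92 ± 0.24, limma adjusted p = 0.0137). The call against TA_1h was lost without TA_1h replicate 1 (log2 0.63, limma adjusted p = 0.146) and when arrays were not averaged (limma adjusted p = 0.0628). Number as a replicate block gave a limma adjusted p of 0.0631. With the 5 low-ratio TA arrays left out the difference from TA_1h was 1.53, and with only those as TA it was -0.58. In the latter TA_1h is array 2b alone, the one with 21524. The array suffixes _i and _r mark probe sets that did not meet all of the manufacturer's design rules.

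Low-ratio TA arrays had lower medians than the other TA arrays in 2 of the Dcn probe sets. The ranges overlapped over both hours but not within TA_6h. There Z12298cds_s_at had 771.6 to 1426 on the low-ratio arrays and 1982 to 3862 on the others. For rc_AI639233_s_at these ranges were 699.6 to 1391 and 1963 to 2718. Z12298cds_s_at had a median of 1016 on the 5 low-ratio arrays and 2409 on the other 7, and rc_AI639233_s_at had 796.9 and 1963. The difference of EOM from TA_6h in Z12298cds_s_at was 3.68 with only low-ratio arrays as TA and 2.12 without them. That of rc_AI639233_s_at was 2.46 and 1.17, and that of X59859_r_at 3.01 and 1.95. All 3 were called on both sides of this division. X59859_i_at had a higher median on the low-ratio arrays, 8966 against 6655 on the others.

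Biglycan, which carries a pair of side chains and binds membrane proteins of the muscle fibre, gave calls in opposite directions. Bgn rc_AA859830_s_at had 922.5, 931.2, 965.5 and 791.4 in EOM, against a lowest of 81.2, a median of 343.1 and a highest of 633.9 in TA_6h and values of 389.6, 337.1, 495.2 and 112.5 in TA_1h. All EOM arrays lay above all TA arrays (3.44-fold over TA_6h, log2 1.78 ± 0.41, limma adjusted p = 0.00589, and 3.08-fold over TA_1h, log2 1.62 ± 0.51, limma adjusted p = 0.0303). Bgn U17834_at had 1076, 1440, 1167 and 705.3 in EOM, against a lowest of 1820, a median of 2114 and a highest of 2362 in TA_6h and values of 1409, 1597, 1479 and 1038 in TA_1h. Here all EOM arrays lay below all TA_6h arrays (1.96-fold lower, log2 -0.97 ± 0.22, limma adjusted p = 0.00520) and overlapped TA_1h (log2 -0.36 ± 0.27, limma adjusted p = 0.330). The direction of Bgn between the muscles therefore depends on the probe set, and no direction is given for the gene.

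The first Bgn probe set also differed with the beta-actin ratio. It had 81.2 to 304.0 on the low-ratio TA arrays and 337.1 to 633.9 on the other 7, which do not overlap. Its difference from TA_6h was 2.61 with only low-ratio arrays as TA and 0.95 without them. U17834_at had 1038 to 2362 on the low-ratio arrays and 1409 to 2298 on the others, and its difference from TA_6h ran from -1.18 to -0.77 over 22 alternatives, all called. The call of rc_AA859830_s_at against TA_1h was lost without EOM replicate 1 (limma adjusted p = 0.0551), EOM replicate 2 (0.0523), EOM replicate 3 (0.0583), TA_1h replicate 1 (0.0697) or TA_1h replicate 2 (0.197), and with no filter on dim probe sets (0.0569).

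**Figure D2:**
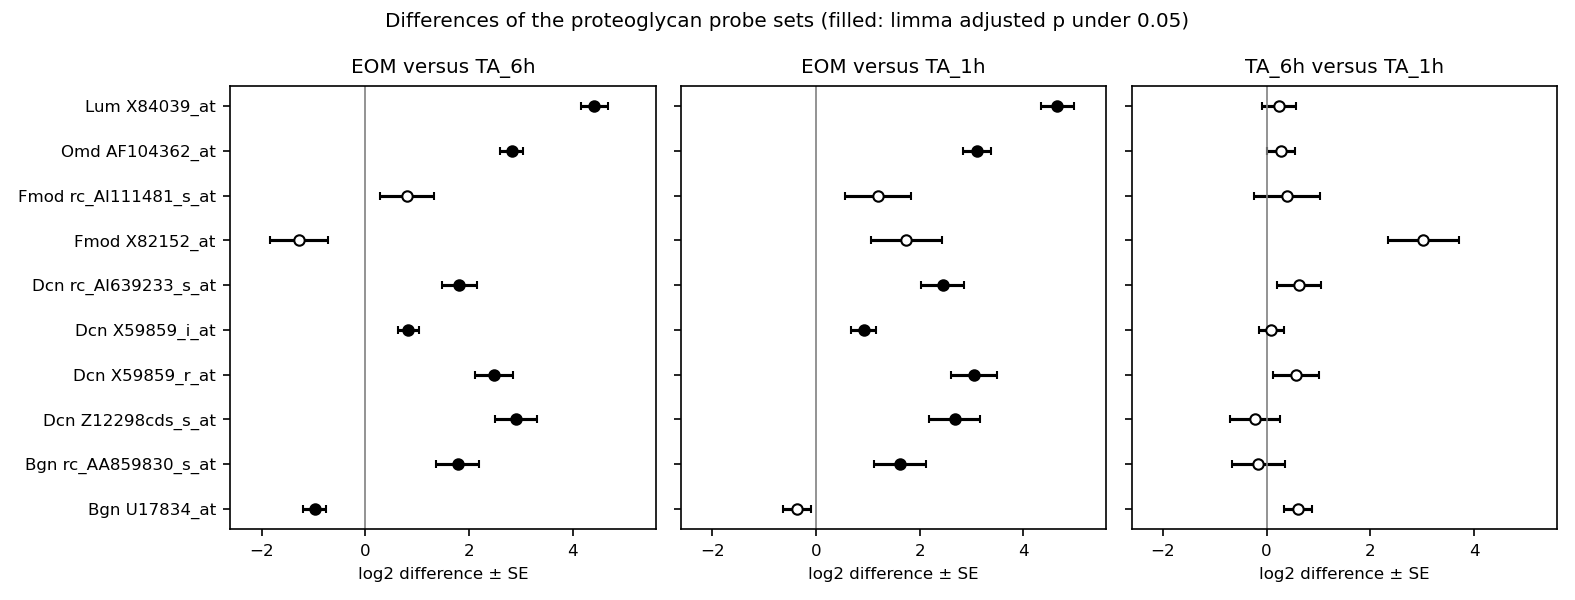
Log2 difference ± standard error of each proteoglycan probe set in the 3 comparisons, with filled points at a limma adjusted p under 0.05. Lum, Omd and Dcn lie right of 0 in both EOM comparisons, the Bgn probe sets lie on opposite sides, and the point farthest from 0 between the TA hours is Fmod X82152_at at 3.02.

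Fibromodulin, a keratan sulfate proteoglycan abundant in tendon that shares its collagen binding site with lumican, was the member with no probe set called between EOM and either TA group. Fmod rc_AI111481_s_at had 691.4, 733.0, 638.7 and 720.4 in EOM, against a lowest of 101.3, a median of 476.8 and a highest of 1246 in TA_6h and values of 358.6, 356.7, 207.0 and 318.4 in TA_1h. EOM lay within the TA_6h range (log2 0.81 ± 0.52, limma adjusted p = 0.225) and above all TA_1h arrays without being called (log2 1.20 ± 0.64, limma adjusted p = 0.169). Fmod X82152_at had 339.8, 186.5, 203.5 and 195.2 in EOM, against 1156, 1128, 782.9, 809.3, 259.8, 76.4, 680.1 and 670.5 in TA_6h and 64.6, 41.0, 32.0 and 96.7 in TA_1h. It was lower in EOM than on 6 of the 8 TA_6h arrays and higher than on every TA_1h array. Neither difference was called (log2 -1.28 ± 0.56, limma adjusted p = 0.0868 against TA_6h, and log2 1.75 ± 0.69, limma adjusted p = 0.0717 against TA_1h).

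The TA_6h samples of Fmod were uneven, and its calls changed with the samples and settings used. In rc_AI111481_s_at the TA_6h samples 1 to 4, each the geometric mean of a pair of arrays, had 1058, 600.0, 278.1 and 140.4. Without TA_6h replicate 1 this probe set was called higher in EOM (log2 1.28, limma adjusted p = 0.0331), as it was with only low-ratio arrays as TA (1.81, limma adjusted p = 0.00305), and without them the difference was -0.20 (limma adjusted p = 0.598). X82152_at had 1142, 796.0, 140.9 and 675.3 in the same samples. Without TA_6h replicate 3 it was called lower in EOM than in TA_6h (-1.92, limma adjusted p = 0.000697) and higher than in TA_1h (1.75, limma adjusted p = 0.00266). Without the low-ratio arrays it was also called against both (-2.09 and 1.94, limma adjusted p = 0.000932 and 0.00118). It was lower by 1.38 and called against TA_6h with a floor at the 40th percentile (limma adjusted p = 0.0380). Against TA_1h X82152_at was called in 7 of 21 alternatives. Beside the pair already given these were a fit of EOM and TA_1h alone (limma adjusted p = 0.00465), the lower floor at the 10th percentile (0.0412), a common median (0.0493), arrays not averaged (0.0408) and the replicate block (0.0259). For rc_AI111481_s_at 2 of 22 gave a call, the fit of these groups alone (limma adjusted p = 0.00330) and the one without low-ratio arrays (log2 1.35, limma adjusted p = 0.00702).

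The comparison of the TA hours asked whether the proteoglycans differed between muscle collected at 6 hours and at 1 hour. Fmod X82152_at had the largest difference of the members, with 675.3 or more in TA_6h samples 1, 2 and 4 and 140.9 in sample 3, against 60.4 and 73.9 in TA_1h. The samples did not overlap, while on single arrays TA_6h 3b (76.4) fell below TA_1h 2b (96.7). The difference was 8.12-fold (log2 3.02 ± 0.69, limma adjusted p = 0.495) and was not called. Since 2 of the 4 TA_1h arrays were at or below the floor, the size depends on the floor, with a log2 difference of 3.34 at the 10th percentile and 2.11 at the 40th. Without TA_6h replicate 3, whose arrays 3a and 3b differed 3.40-fold, it was called (log2 3.67, limma adjusted p = 0.0138) and was the 1 probe set called among the 7560 tested. Without the 5 low-ratio arrays it was called as well (4.03, limma adjusted p = 0.00528), beside 34 of 7289 probe sets called. With only low-ratio arrays as TA, which sets TA_6h samples 3 and 4 against the single TA_1h array 2b, the difference was 1.67. The other Fmod probe set differed by 0.39 ± 0.64 (limma adjusted p = 1.0), by 1.55 without the low-ratio arrays and by -0.69 with only those. Its direction thus changed with the arrays kept, where the ratio cannot be told apart from the sample.

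**Figure D3:**
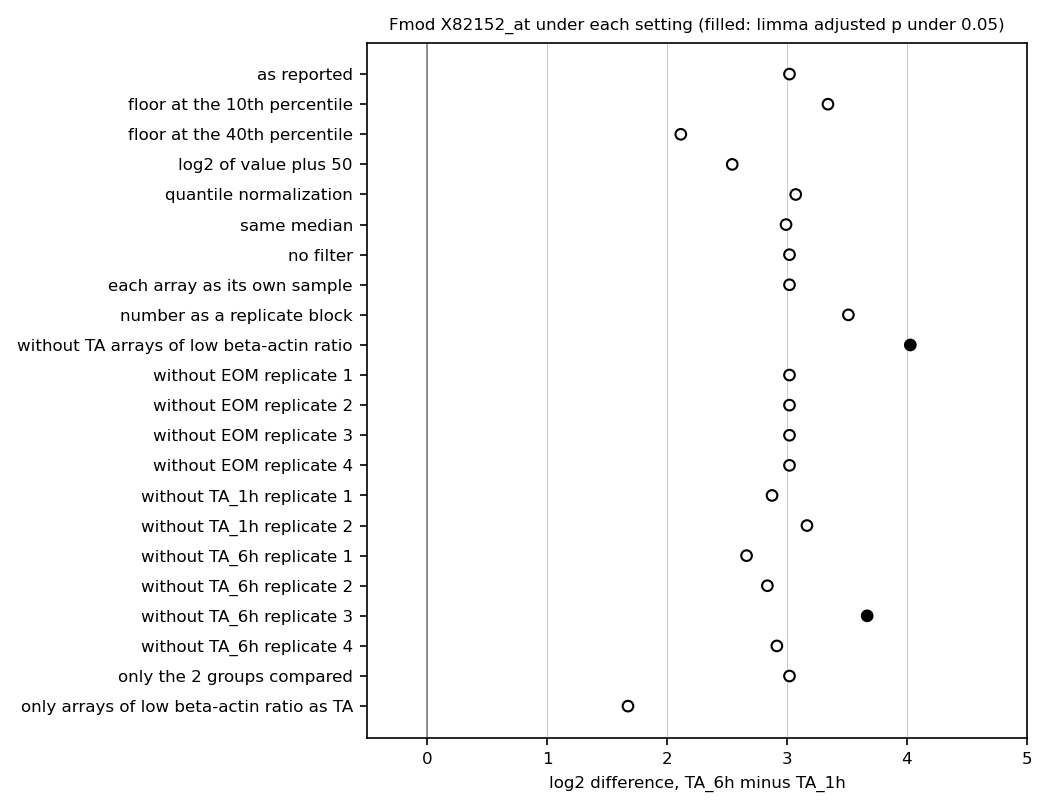
Log2 difference of Fmod X82152_at between TA_6h and TA_1h as reported and in 21 alternatives, with filled points at a limma adjusted p under 0.05. All points lie right of 0, between 1.67 and 4.03, and the filled ones are those without TA_6h replicate 3 and without the arrays of low beta-actin ratio.

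Among the other members Bgn U17834_at had TA_6h arrays that all lay above the TA_1h arrays (1.53-fold, log2 0.61 ± 0.27, limma adjusted p = 0.885). The Dcn probe sets differed by -0.22 to 0.63 on the log2 scale and Omd by 0.28 ± 0.27. Arrays of a single TA sample differed by a median of 0.35 on the log2 scale over the 10 probe sets and by 0.31 over all probe sets tested.

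Marker lists of cell types, among them fibroblasts and tendon cells, did not move alike between the groups. The shares over all 4317 genes, each by its brightest probe set, were 22.6% higher and 25.3% lower in EOM against TA_6h. Against TA_1h they were 18.4% and 19%, and list counts near these shares say nothing particular about a list. Of 8 tested fibroblast markers 4 were higher and 0 lower in EOM against TA_6h, namely Vim (log2 2.02), Pdgfra (1.64), Fn1 (1.39) and S100a4 (2.83-fold). Against TA_1h these and Col1a1 were higher, 5 of 8. Another Fn1 probe set was called lower against TA_6h. The summed level of the 8 markers ran from 45819 to 65919 in EOM, 32449 to 64627 in TA_6h and 19872 to 26771 in TA_1h. No marker was at the floor on all arrays of a group. Most of the sum was Col1a1, Col1a2 and Col3a1, none of them called against TA_6h. They averaged 19100, 8314 and 12740 in EOM and 20988, 10808 and 10065 in TA_6h. Of 4 tested tendon markers 0 were higher and 2 lower against TA_6h, Comp (-1.36) and Egr1 (-1.39). Against TA_1h 1 was higher, Thbs4 (2.12 ± 0.56, limma adjusted p = 0.0144), and 0 were lower. The tendon sum ran from 2493 to 3163 in EOM, 3608 to 9527 in TA_6h and 2042 to 4211 in TA_1h, and no tendon marker was at the floor on all arrays of a group. Its largest part was Egr1, which averaged 1188 in EOM and 3375 in TA_6h. Tnc averaged 762.9 and 588.3, Thbs4 927.6 and 726.6, and Comp 37.1 and 178.9, so the order of the sums followed Egr1. Another Egr1 probe set was called higher against TA_6h. All 4 tested Schwann cell markers were higher against both TA groups, with sums of 8719 to 13017 in EOM, 1709 to 2655 in TA_6h and 1937 to 2826 in TA_1h, while another probe set of 1 of them, Mag, was called lower against TA_6h. Of 8 tested skeletal muscle fibre markers 1 was higher, Ckm (log2 4.39), and 3 were lower against TA_6h. Against TA_1h 2 were higher and 2 lower. Ckm was above the floor on 5 of 8 TA_6h arrays and 3 of 4 TA_1h arrays. The fibre sum ran from 89314 to 108608 in EOM, 85084 to 199560 in TA_6h and 96719 to 224643 in TA_1h. The part of fibroblast, tendon, nerve or muscle fibre content in these differences was not tested. As a check of the labels, all 3 extraocular fibre markers, Myh13, Myh8 and Myh3, were higher in EOM. Their sum ran from 28777 to 35823 in EOM and 2904 to 5123 in TA_1h. In TA_6h arrays 3a and 3b stood apart at 17463 and 17687, where the other 6 arrays had 3443 to 7099. These are the arrays of the TA_6h sample 3 without which Fmod X82152_at was called. Over the TA_6h arrays Myh3 averaged 7828, Myh13 240.1 and Myh8 71.7, so the TA_6h sums were mostly Myh3.

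Genes related to the proteoglycans were counted in 8 lists, each gene by its brightest probe set. Over all 4317 genes 22.6% were called higher and 25.3% lower against TA_6h with a median difference of -0.08, and 18.4% and 19% against TA_1h, also with a median of -0.08. Of 12 other small leucine-rich proteoglycans only Aspn and Chad were on the array. Aspn (asporin), a neighbour of Omd, averaged 725.4 in EOM, 24.7 in TA_6h and 19.3 in TA_1h. It was above the floor on all 4 EOM arrays, 1 of 8 TA_6h arrays and none of 4 TA_1h arrays, and was at least 12.2-fold higher than in TA_1h (limma adjusted p = 2.93e-05). Chad (chondroadherin) was not called against TA_6h (log2 -0.23, limma adjusted p = 0.613) and was higher than in TA_1h (1.33, limma adjusted p = 0.0358).

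Collagens, the ligands of these proteins, did not share the large differences of Lum and Omd. Of 9 fibrillar and fibril-associated collagens 2 were higher and 1 lower against TA_6h (median log2 -0.05), and 3 were higher and 0 lower against TA_1h (median 1.03). Col5a2 (1.34 against TA_6h) and Col12a1 (0.93) were higher in both. Col9a1 was below the floor on all EOM arrays and at least 1.84-fold lower than in TA_6h. Col1a1 was not called against TA_6h (-0.09, limma adjusted p = 0.798) and was higher than in TA_1h (1.21, limma adjusted p = 0.0134). In collagen processing and cross-linking 5 of 13 genes were higher and 1 lower against TA_6h (median 0.24). The higher genes with the largest differences were the elastic fibre protein Fbln5 (2.73 ± 0.19), the crosslinking enzyme Loxl1 (2.62 ± 0.29), the lysyl hydroxylase Plod2 (1.44 ± 0.16) and fibronectin Fn1 (1.39 ± 0.35), and another Fn1 probe set was called lower. Against TA_1h 5 were higher and 0 lower (median 0.34).

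Proteases and their inhibitors included more higher than lower genes. Of 11 enzymes that cleave matrix proteoglycans, and their TIMP inhibitors, 7 were higher and 1 lower against TA_6h (median 0.75), and 6 were higher and 0 lower against TA_1h (median 0.59). Mmp2 (gelatinase A, 1.45 ± 0.16), Timp2 (1.38 ± 0.24), Timp3 (1.35 ± 0.30) and Mmp3 (stromelysin, 1.30 ± 0.20) led the higher ones against TA_6h, and Mmp12, below the floor on all EOM arrays, was lower.

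Other proteoglycans and the enzymes of side chain synthesis gave calls in both directions. Every gene of these lists called lower was above the floor on at most 2 of 4 EOM arrays. Of 17 other matrix and cell surface proteoglycans 5 were higher and 5 lower against TA_6h (median 0.07), and 4 were higher and 3 lower against TA_1h (median 0.15). Bcan (brevican, 2.58 ± 0.46), Sdc2 (syndecan-2, 2.17 ± 0.48) and Gpc3 (glypican-3, 1.64 ± 0.33) were higher against TA_6h, and Cspg4 (-2.07 ± 0.26), above the floor on 2 of 4 EOM arrays, was lower. Of 9 genes of glycosaminoglycan synthesis 3 were higher and 2 lower against TA_6h (median -0.58), and 2 and 2 against TA_1h (median -0.64). B4galt1 (a galactosyltransferase, 1.73 ± 0.48), Ugdh (UDP-glucose dehydrogenase, 1.69 ± 0.42) and Papss1 (which makes the sulfate donor, 0.72 ± 0.15) were the higher 3 against TA_6h, and Chst10 (a sulfotransferase, -1.79 ± 0.27), above the floor on 2 of 4 EOM arrays, was lower. Another probe set of Ugdh was not called.

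Growth factors and receptors known to bind these proteoglycans were also mixed. Of 19 genes 5 were higher and 3 lower against TA_6h (median 0.33), and 3 were higher and 2 lower against TA_1h (median 0.38). Igf1 (2.81 ± 0.19, with 1 of its 5 probe sets called lower) and Egfr (2.08 ± 0.32) were higher in both. Pdgfa and Tgfb1 were lower in both. Pdgfa (-2.18 ± 0.32 against TA_6h) was above the floor on 2 of 4 EOM arrays. Tgfb1, with all EOM arrays at the floor, was at least 3.86-fold lower than in TA_6h. The other gene called lower against TA_6h was also above the floor on 2 of 4 EOM arrays. Of the membrane partners of biglycan 3 were tested. On the floored values Utrn (utrophin) was at least 14.5-fold lower than in TA_6h through 1 probe set and called higher through its other. Nos1 (neuronal nitric oxide synthase) was at least 2.90-fold lower, and Dmd (dystrophin) was not called (0.23, limma adjusted p = 0.652). In EOM these probe sets of Utrn and Nos1 averaged -365.5 and -387.6, below 0, where no TA value lay.

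**Figure D4:**
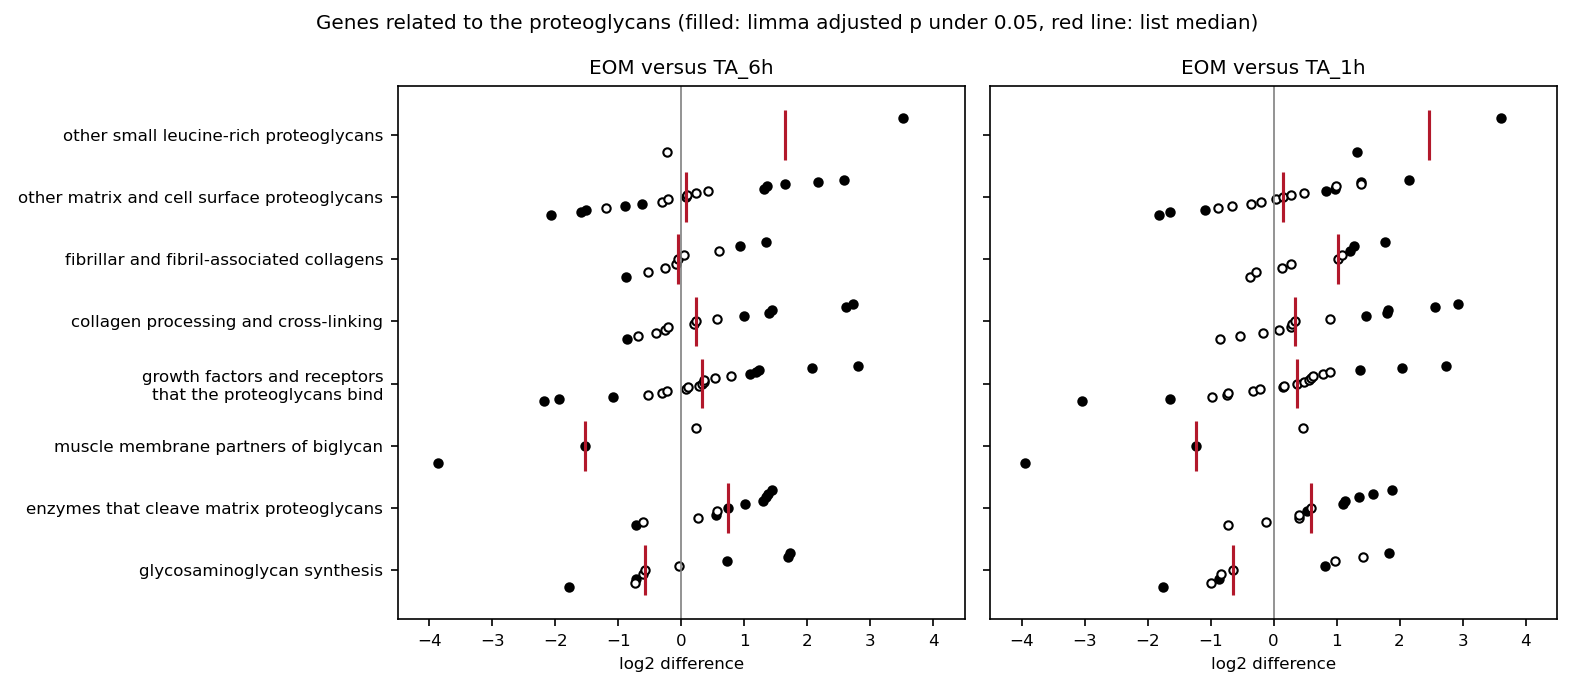
Log2 difference of each tested gene in the 8 related lists, by its brightest probe set, for EOM against TA_6h and TA_1h. Filled points have a limma adjusted p under 0.05 and red lines are list medians, which lie between -1.54 and 1.65 against TA_6h.

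The genes nearest to each member in pattern were found by the root mean square difference of mean-centred log2 values over the 10 samples, among 4316 other genes. The measure is dominated by the difference between the muscles. For Lum the nearest were Myh3 (through K03467_s_at, 0.37), Apod (0.39) and Mx2 (0.41). The nearest fellow members were Dcn at rank 53, through Z12298cds_s_at, and Omd at rank 58. Seen from Dcn X59859_i_at, Lum stood at rank 4218, so the likeness of Lum and Dcn depended on the probe set. For Omd they were Gulp1 (0.20), Ncbp2 (0.22) and Fbln5 (0.23). For Fmod, by rc_AI111481_s_at, they were Klhl41 (0.24), Col3a1 (0.29) and Hprt1 (0.30). For Dcn, by X59859_i_at, they were Nvl (0.14), Pdia4 (0.17) and Gstm7 (0.18), and for Bgn, by U17834_at, Exoc2 (0.15), Cdc34 (0.21) and Bckdha (0.23).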

How the data were processed

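Expression was measured on 16 single-colour oligonucleotide arrays. The deposited values are intensities per probe set that the authors had scaled to a common trimmed mean, as the values show. The sources used here do not give the summary software. Values under the floor (25th percentile of all intensities) were raised to it, log2 was taken, and arrays of 1 group and number were averaged. After 59 controls were left out, 7640 probe sets exceeded the floor on 4 or more arrays. The fit used limma (version 3.58.1, R version 4.3.3) with lmFit and eBayes (3 groups in 1 fit, 7 residual degrees of freedom), with Benjamini-Hochberg adjustment over all of them. The fit was tested on simulated data. Errors of differences are limma standard errors, and the number of arrays limits the precision. Probe names come from GEO's platform annotation: 308 probe sets with several symbols and 1473 unlisted ones were not named.

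The members, lists and alternatives were chosen with earlier results of these data known. Named were all member probe sets, up to 4 genes per list called in a comparison and with the largest differences from TA_6h (Dmd, Mmp12 and marker genes were added after their values were seen), and the 3 genes of nearest pattern per member. A gene with all arrays of the lower group at the floor has an "at least" fold. This bound is on the floored values, and where EOM is the lower group it carries the difference in how the columns were made. Alternatives changed the floor, normalization, filter, averaging, replicate block, samples fitted and arrays kept. Plots used matplotlib (version 3.10.9, Python version 3.11.15).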

Additional observations from a re-analysis of the deposited data

Results flagged for a closer look

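In 2 cases 1 sample of a group of 4 lay far from the others by Dixon's test, which flags about 1 in 20 groups by chance, among 20 groups examined. Fmod X82152_at had 339.8 in EOM sample 1, against 186.5 to 203.5 in the other EOM samples. Dcn X59859_i_at had 6362 in TA_6h sample 2, against 8531 to 8994 in the other TA_6h samples.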

How the results depend on the processing

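Of 657 recomputed member differences 615 kept their direction and side of the threshold, 9 lost a call, 16 gained one and 17 changed direction. Of the changes of direction the values called before or after were those of Dcn X59859_i_at when low-ratio arrays alone stood for TA, an alternative added after the data were seen, at -0.58 for EOM against TA_1h and -1.32 for TA_6h against TA_1h. There TA_1h is a single array, assumed to vary like the other groups. The same alternative turned Bgn U17834_at to 0.034 against TA_1h, and between the TA hours Fmod rc_AI111481_s_at to -0.69, Dcn X59859_r_at to -0.72 and Bgn rc_AA859830_s_at to 0.39. Without low-ratio arrays Fmod rc_AI111481_s_at was -0.20 for EOM against TA_6h, and between the TA hours Dcn Z12298cds_s_at was 0.58 and Bgn rc_AA859830_s_at 0.13. Leaving out single samples moved the TA hour difference from -0.47 to 0.18 for Bgn rc_AA859830_s_at, -0.59 to 0.12 for Dcn Z12298cds_s_at, -0.20 to 0.38 for Dcn X59859_i_at and -0.083 to 0.89 for Fmod rc_AI111481_s_at. The filter on all 16 arrays, which tests fewer probe sets, left 1927 calls between EOM and TA_6h, 1512 between EOM and TA_1h and 1 between the TA hours. The TA hours gave 8 calls without a filter, 1 with arrays not averaged, 34 (1 a member) without low-ratio arrays and 418 (1 a member) with those alone. Leaving out single samples gave 3143 to 3520 calls for EOM against TA_6h, 1840 (without TA_1h replicate 1) to 3039 for EOM against TA_1h and 0 to 1 for the TA hours, with 8 to 9, 5 to 8 and 0 to 1 members. Scaling to a common median gave 1862 higher and 1715 lower in EOM against TA_6h, in place of 1671 and 1935, and 1508 and 1296 against TA_1h, in place of 1354 and 1489. The cause was not tested. With number as a replicate block 3507, 2540 and 0 probe sets and 8, 7 and 0 members were called. The block ended the call of Dcn X59859_i_at against TA_1h, gave one to Fmod X82152_at (2.24, limma adjusted p = 0.0259), and turned Dcn Z12298cds_s_at to 0.20 and Bgn rc_AA859830_s_at to 0.27 between the TA hours. Deviations of same-numbered samples correlated at 0.02 to 0.10 between EOM and TA_6h and at 0.39 and -0.42 between the TA groups. With only 2 TA_1h samples, their deviations from the group mean are equal and opposite. The values between the TA groups are therefore not independent and cannot test pairing. The labels tie no number to an animal, and the numbers were not taken to pair samples.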
